A study of Mus musculus with 6 samples.

Results

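The ATP synthase of the inner mitochondrial membrane was followed at the RNA level through 10 nuclear genes of its subunits: Atp5a1, Atp5b, Atp5c1, Atp5d, Atp5e, Atp5g1, Atp5g2, Atp5g3, Atp5h and Atp5o. They were taken by symbol, all 10 were found among the 52550 genes of the deposited tables, and they have 55 of the 131146 transcripts listed. The cells were CD3+ T cells purified from the spleens of wild-type mice, activated for 24 h by anti-CD3 and anti-CD28 antibodies, that is, through the T cell receptor (TCR). In the TCR alone group (n = 3) nothing else was added. In the TCR+DMGV group (n = 3) the sample labels name dimethylguanidino valeric acid (DMGV) as the addition, and the dose was 100 ng/ml. The study's text names LNY1 as the addition in its RNA sequencing experiment, and its legend gives the 100 ng/ml as the dose of LNY1. LNY1 was its name for an inhibitory factor purified from conditioned medium and traced to ADMA and SDMA, the compounds from which DMGV is formed, and the groups here carry the name that the labels give. The legend of the experiment gives 3 independent biological samples per group. No unstimulated T cells are among the samples, so every value below describes activated cells.

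ATP synthase is a rotary enzyme. Protons that flow back into the matrix turn a ring of c subunits in the membrane, the ring turns the central stalk, and the stalk drives ATP synthesis in the catalytic head, which the peripheral stalk keeps from turning along. Atp5a1 and Atp5b encode the α and β subunits of the head, Atp5c1, Atp5d and Atp5e the γ, δ and ε subunits of the central stalk, Atp5h and Atp5o subunit d and the oligomycin sensitivity conferring protein (OSCP) of the peripheral stalk, and Atp5g1, Atp5g2 and Atp5g3 the c subunit. The files list Atp5a1 as ENSMUSG00000025428.15, Atp5b as ENSMUSG00000025393.12 and Atp5d as ENSMUSG00000003072.15 (both on chromosome 10), Atp5c1 as ENSMUSG00000025781.14 and Atp5e as ENSMUSG00000016252.7 (both on chromosome 2), Atp5h as ENSMUSG00000034566.10 (chromosome 11) and Atp5o as ENSMUSG00000022956.10 (chromosome 16). T cells that enter the cell cycle after TCR engagement raise both glycolysis and mitochondrial respiration.

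The c subunit is a case of several genes for a single mature protein, and the coding sequences are shown because they decide whether reads of the 3 genes can be told apart. In the GENCODE M21 annotation of GRCm38, Atp5g1 (ENSMUSG00000006057.15) lies on the minus strand at chr11:96068852-96075670, Atp5g2 (ENSMUSG00000062683.11) on the minus strand at chr15:102662864-102672352, and Atp5g3 (ENSMUSG00000018770.9) on the minus strand at chr2:73908447-73911326. Their coding sequences have 408, 438 and 423 bases without the stop codon. The last 78 codons, spliced from coding exons and printed 5′ to 3′ as RNA-sense DNA, encode the same residues in all 3 genes, and capitals mark the bases at which the 3 genes do not all have the same letter.
Atp5g1: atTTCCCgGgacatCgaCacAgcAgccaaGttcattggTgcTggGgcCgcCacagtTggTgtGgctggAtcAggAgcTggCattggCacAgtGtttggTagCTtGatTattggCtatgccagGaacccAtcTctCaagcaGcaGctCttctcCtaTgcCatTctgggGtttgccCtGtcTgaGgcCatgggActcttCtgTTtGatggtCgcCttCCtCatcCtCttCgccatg
Atp5g2: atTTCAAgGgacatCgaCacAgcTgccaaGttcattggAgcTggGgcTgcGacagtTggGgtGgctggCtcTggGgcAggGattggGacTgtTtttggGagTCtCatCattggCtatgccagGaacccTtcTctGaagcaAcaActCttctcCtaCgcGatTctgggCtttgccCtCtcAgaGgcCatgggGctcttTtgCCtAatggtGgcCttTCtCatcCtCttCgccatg
Atp5g3: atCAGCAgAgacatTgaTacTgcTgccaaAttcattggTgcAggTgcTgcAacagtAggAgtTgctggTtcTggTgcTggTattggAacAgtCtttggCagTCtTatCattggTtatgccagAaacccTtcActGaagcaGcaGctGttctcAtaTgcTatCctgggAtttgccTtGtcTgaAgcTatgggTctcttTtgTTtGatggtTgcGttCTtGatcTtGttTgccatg
Of the 234 bases, 63 were variable, and 55 of these were the last base of a codon. Atp5g1 and Atp5g2 were identical at 84.6% of the bases, Atp5g1 and Atp5g3 at 78.6%, and Atp5g2 and Atp5g3 at 77.4%. The stretches before the shared residues, which hold the mitochondrial targeting peptides, were identical at 37.5% to 42.6% of aligned residues. Between the main transcripts of the genes, the longest run of identical bases was 21, so a longer read holds at least 1 base that separates any pair of these transcripts.

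The libraries had 37758725 to 43718867 counts. The 10 T cell markers summed to 2839 to 3073 CPM (counts scaled to the size of the library) in TCR alone and 3027 to 3278 CPM in TCR+DMGV, with none at 0. The 6 B cell markers summed to 7.85 to 11.1 and 8.63 to 9.78 CPM, the 7 myeloid markers to 7.03 to 9.06 and 7.37 to 8.17 CPM with Cd14, S100a8 and S100a9 at 0, the 6 erythroid and platelet markers to 2.20 to 3.36 and 1.48 to 2.62 CPM, and the 4 NK cell markers to 7.01 to 14.8 and 8.65 to 17.0 CPM, so that the ranges of these sums overlapped between the groups for every list. By gene, the 2 erythroid and platelet markers that were tested had a median log2 fold change of -0.73 and a median deviation below the 6-sample mean in every TCR+DMGV sample and above it in every TCR alone sample, and the 3 tested NK cell markers had estimates above 0 with a median of 0.46. None of these passed edgeR's test, and their part in the values below was not tested. The mitochondrial genome encodes the subunits mt-Atp6 and mt-Atp8, and both genes had 0 counts in every sample. Whether that genome was part of the counting is not given in the sources used here. These counts therefore do not show that the 2 RNAs were absent from the cells.

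All 10 subunit genes were strongly expressed in activated T cells, with the head far above the rest. As FPKM (fragments scaled to the length of the gene and the size of the library, a level per length), Atp5b had 375, 419 and 434 in TCR alone replicates 1, 2 and 3 and 431, 411 and 423 in TCR+DMGV replicates 1, 2 and 3. Atp5a1 had 322, 351 and 370 FPKM in TCR alone and 362, 343 and 349 FPKM in TCR+DMGV. Every sample had more Atp5b than Atp5a1, and their ranges did not overlap. The means over the 6 samples were 415 ± 21.6 FPKM for Atp5b and 349 ± 16.8 FPKM for Atp5a1 (SD, n = 6), above 99.4% and 99.3% of the 14786 genes tested.

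In gene FPKM, the central stalk genes spread over a wide range although their products sit side by side in the enzyme. Atp5c1 reached 127 ± 12.0 FPKM, Atp5d 74.1 ± 6.11 FPKM and Atp5e 23.5 ± 4.42 FPKM (mean ± SD, n = 6). The peripheral stalk genes lay between them, at 103 ± 13.0 FPKM for Atp5h and 64.4 ± 7.51 FPKM for Atp5o. Of the c subunit genes, Atp5g2 had 98.0 ± 11.7 FPKM, Atp5g3 62.3 ± 9.17 FPKM and Atp5g1 21.9 ± 1.80 FPKM. In the order of means, the neighbours Atp5c1 and Atp5h, Atp5h and Atp5g2, Atp5d and Atp5o, Atp5o and Atp5g3, and Atp5e and Atp5g1 overlapped in their ranges, and the other neighbours did not.

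**Figure D1:**
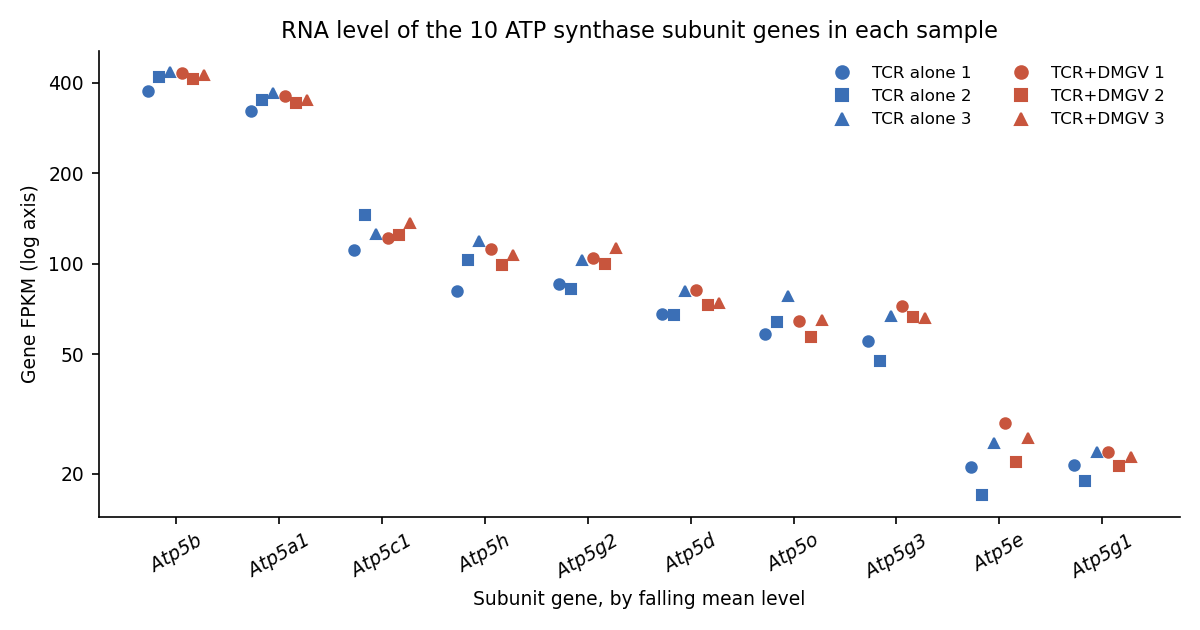
Gene FPKM on a log axis for the 10 subunit genes, ordered by falling mean level, with a point for each of the 6 samples (blue, TCR alone; red, TCR+DMGV; the shape gives the replicate number). Atp5b (375 to 434) and Atp5a1 (322 to 370) stand above all others, and Atp5e and Atp5g1 are lowest.

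The order in the middle, and the size of the differences between genes, depend on the length that a count is divided by. The length behind the gene FPKM values, worked out from counts and FPKM, followed that of the combined exons of all transcripts of a gene (median ratio 1.13 over all genes) and was 5526 bases for Atp5g1 and 1884 for Atp5g2. When the FPKM of the single transcripts were summed in place of this, Atp5b had 938 ± 50.3, Atp5a1 464 ± 25.4, Atp5h 250.4 ± 31.1, Atp5g2 225 ± 26.8, Atp5c1 206 ± 18.0, Atp5g3 186 ± 27.8, Atp5o 175 ± 19.7, Atp5d 116 ± 8.63, Atp5e 94.4 ± 19.1 and Atp5g1 88.5 ± 6.37 (mean ± SD, n = 6). Atp5b and Atp5a1 were highest and Atp5e and Atp5g1 lowest on both scales, while Atp5c1 moved from rank 3 to rank 5. In proportion, the central stalk genes lay closer together here, from 206 for Atp5c1 to 94.4 for Atp5e, against 127 to 23.5 in gene FPKM.

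The comparison of TCR+DMGV with TCR alone asks whether the compound, which the study examined for its action on mitochondria, came with a different RNA level of the enzyme. None of the 10 genes passed the test (edgeR quasi-likelihood, adjusted p = 0.999 for each), against 0.0135% of all genes tested. DESeq2 also called none, against 0.0854% of genes. At an unadjusted p under 0.05 there were 2 subunit genes, Atp5g2 and Atp5g3, both with the higher value in TCR+DMGV, and 1.63% of all genes passed in that direction. The fitted log2 fold changes ran from -0.09 (Atp5o) to 0.31 (Atp5e), which is 0.939-fold to 1.24-fold, with standard errors of 0.07 to 0.16. The fold change was above 0 for 9 of the 10 genes and for 50.6% of all genes, and the median was 0.09 over the 10 genes and 0.00 over all genes.

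The head genes differed by less than the spread of the TCR alone samples. Atp5b had 1770, 2033 and 2018 CPM in TCR alone and 2011, 1985 and 2063 CPM in TCR+DMGV, a log2 fold change of 0.06 ± 0.08 (SE). Atp5a1 had 1123, 1259 and 1271 CPM against 1252, 1226 and 1259.6 CPM, a log2 fold change of 0.03 ± 0.07 (SE). In both genes TCR alone replicate 1 was the low sample and the other 5 lay close together, with the groups overlapping. In the central stalk, Atp5c1 had 236, 317 and 263 CPM against 255, 271 and 300.0 CPM, and its log2 fold change was 0.02 ± 0.12 (SE). Atp5d had 146, 149 and 171 CPM against 173, 160.3 and 164 CPM, with a log2 fold change of 0.09 ± 0.09 (SE). The smallest of the 3 by level, Atp5e, had the largest estimate of the 10 genes: 41.2, 34.1 and 48.9 CPM against 57.0, 44.01 and 53.0 CPM, a log2 fold change of 0.31 ± 0.16 (SE, adjusted p = 0.999 in edgeR). TCR+DMGV replicate 2 lay below TCR alone replicate 3 in Atp5e, so the groups overlapped here too.

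The estimates of the peripheral stalk genes had opposite signs, but each was smaller in size than its standard error. Atp5h had 132, 173 and 191 CPM in TCR alone and 180.1, 166 and 180.1 CPM in TCR+DMGV (log2 fold change 0.08 ± 0.14, SE). Atp5o was the only gene of the 10 with an estimate below 0, with 147, 166 and 193 CPM against 160.1, 147 and 168 CPM (log2 fold change -0.09 ± 0.12, SE). For both, the TCR+DMGV samples lay inside the range of the TCR alone samples.

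In CPM, Atp5g2 and Atp5g3 were the only genes of the 10 in which every TCR+DMGV sample lay above every TCR alone sample, a pattern that 4.92% of all tested genes had, and none of the 10 had the opposite pattern, which 3.94% of genes had. Atp5g2 had 160.0, 158 and 188 CPM in TCR alone and 192, 191 and 218 CPM in TCR+DMGV. Its log2 fold change was 0.25 ± 0.10 (SE, adjusted p = 0.999 in edgeR). Atp5g3 had 134, 118 and 160 CPM against 174, 165 and 165 CPM, and its log2 fold change was 0.29 ± 0.11 (SE, adjusted p = 0.999 in edgeR). The gap between groups was narrow in both, since TCR alone replicate 3 came within a few CPM of the lowest TCR+DMGV sample. In gene FPKM both genes overlapped between the groups, since TCR alone replicate 3 had 102.6 for Atp5g2 against 99.8 in TCR+DMGV replicate 2, and 66.8 for Atp5g3 against 65.8 in TCR+DMGV replicate 3. They overlapped in summed transcript FPKM as well, and in deposited counts Atp5g3 did. Atp5g1 had 117, 107 and 128 CPM against 128, 119 and 128 CPM, with a log2 fold change of 0.09 ± 0.09 (SE), and its groups overlapped. The exact two-sided permutation test over samples gave p = 0.1 for the CPM of Atp5g2 and of Atp5g3, the smallest that 3 against 3 samples can give. The study named Atp5g3 among the genes raised by LNY1 in these same samples, so its direction here is no independent evidence. Leaving out each sample in turn or changing the processing kept the estimate of Atp5g2 between 0.18 and 0.36 and that of Atp5g3 between 0.19 and 0.42, and the smallest adjusted p for either was 0.649.

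**Figure D2:**
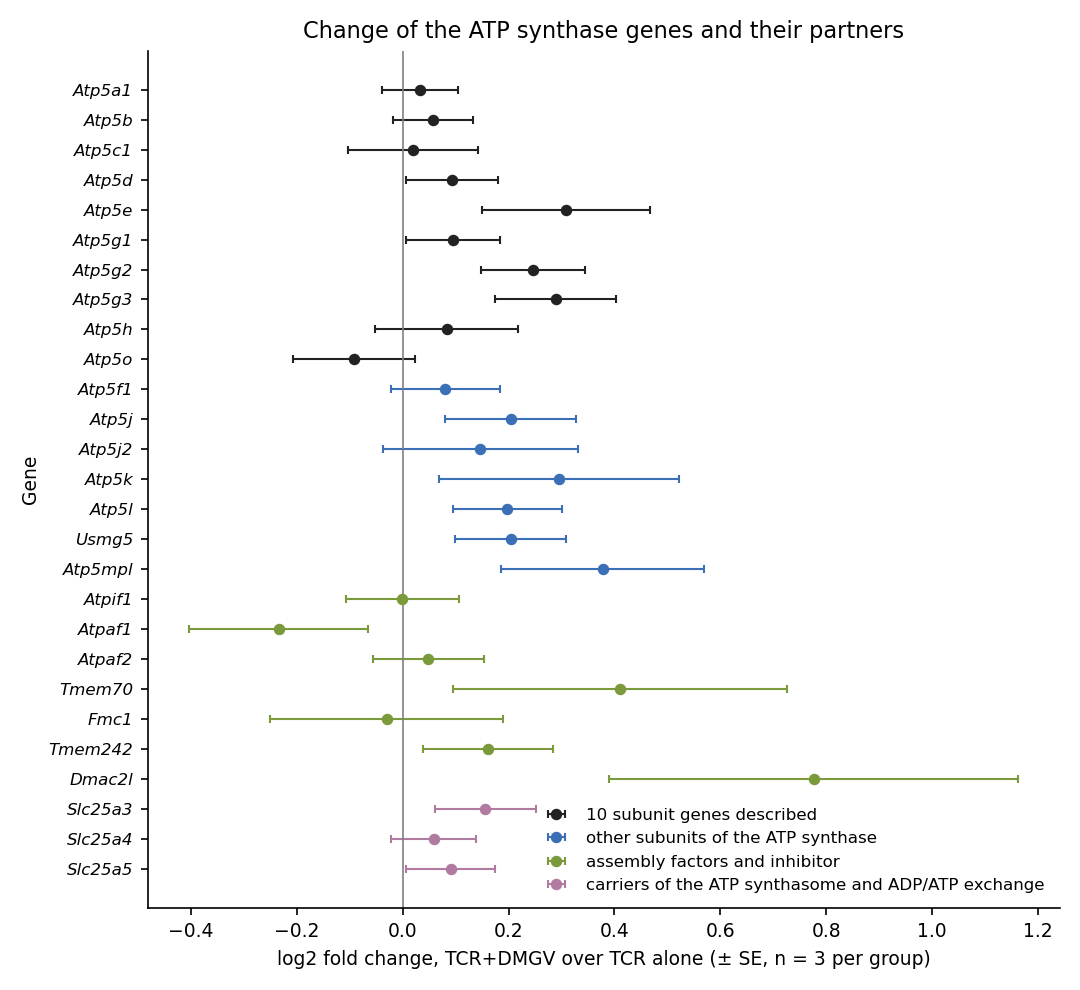
Log2 fold change of TCR+DMGV over TCR alone with its standard error (edgeR, n = 3 per group) for the 10 subunit genes (black), the other nuclear subunits (blue), assembly factors and the inhibitor (green) and the carriers (purple). The estimates of the 10 genes lie between -0.09 and 0.31, and no gene shown passed the test.

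The 3 c subunit genes were then set side by side, since the ring can be built from the product of any of them. Over the 6 samples, Atp5g2 held 53.8% of their summed gene FPKM, Atp5g3 34.1% and Atp5g1 12.1%. In summed transcript FPKM the shares were 45.0%, 37.2% and 17.8%. In counts, which favour genes with long transcripts, they were closer, at 40.3%, 33.2% and 26.5%. The order of the 3 was the same in every sample on each scale. The share of Atp5g1 in FPKM was 13.1%, 12.7% and 12.3% in TCR alone and 11.8%, 11.3% and 11.3% in TCR+DMGV, so that all TCR+DMGV samples were lower, by 1.26 percentage points on average (exact permutation p = 0.1, adjusted over the 3 shares 0.30). Atp5g2 had 52.8%, 55.4% and 53.1% against 52.1%, 53.3% and 56.1%, and Atp5g3 had 34.0%, 31.8% and 34.6% against 36.1%, 35.4% and 32.7%. The groups overlapped for these 2 genes (exact permutation p = 1.0 and 0.4). The 3 shares of a sample sum to the whole, so none can change on its own. The share of Atp5g1 was lower without a lower level, as its own log2 fold change was 0.09 ± 0.09 (SE). Together the 3 genes had 411, 383 and 476 CPM in TCR alone and 493, 475 and 511 CPM in TCR+DMGV, which overlapped by a single pair of samples (exact permutation p = 0.2).

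**Figure D3:**
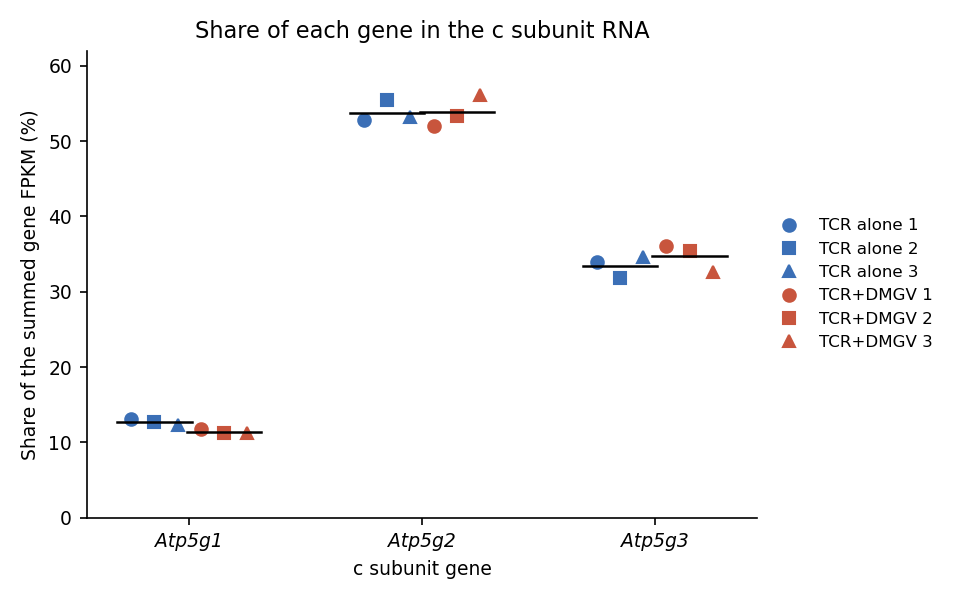
Share (%) of the summed gene FPKM of the 3 c subunit genes held by each, with a point per sample (blue, TCR alone; red, TCR+DMGV) and a line at each group mean (n = 3). Atp5g1 fell between 11.3% and 13.1%, with the 3 TCR+DMGV samples below the 3 TCR alone samples, and the groups overlapped for Atp5g2 and Atp5g3.

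The subunit genes differed among the TCR alone samples. TCR alone replicate 1 lay below the 6-sample mean in 10 of the 10 genes and was the lowest sample in 6 of them, with a median deviation of -0.16 in log2 CPM. TCR alone replicate 2 was the lowest in the other 4, the c subunit genes and Atp5e, but the highest in Atp5c1. TCR alone replicate 3 was above the mean in 9 genes (median 0.08), like TCR+DMGV replicate 1 in 8 (median 0.07) and TCR+DMGV replicate 3 in 10 (median 0.09). The SD of the CPM was larger in TCR alone than in TCR+DMGV for all 10 genes. The large cytosolic ribosomal proteins, which have no role in the mitochondrion, were low in the same sample, with median deviations of -0.24, -0.05 and 0.07 in TCR alone and 0.09, -0.01 and 0.18 in TCR+DMGV. TCR alone replicate 1 also had the lowest total, 37758725 counts, and the part of either in the values above was not tested.

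Without TCR alone replicate 1, the median log2 fold change of the 10 genes went from 0.09 to 0.0050 and the number of genes above 0 from 9 to 5. Without TCR alone replicate 3 the median was 0.17 with all 10 above 0, so the size of the median rested on which TCR alone samples entered.

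**Figure D4:**
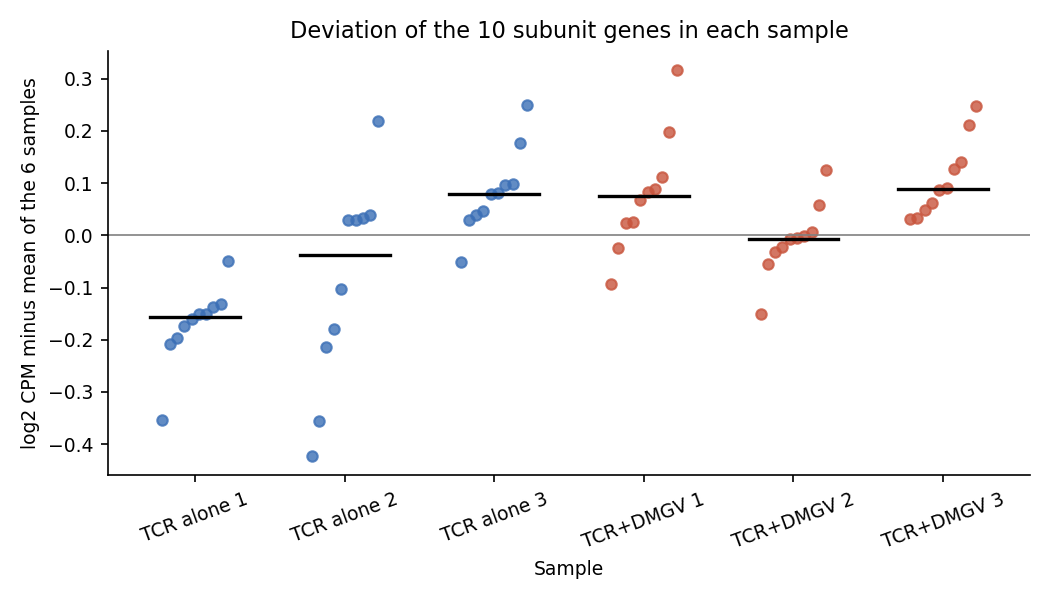
Log2 CPM of each of the 10 subunit genes minus its mean over the 6 samples, a point per gene, in each sample (blue, TCR alone; red, TCR+DMGV), with a black line at the median. TCR alone replicate 1 has all 10 points below 0, and TCR+DMGV replicate 3 has all 10 above.

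The remaining nuclear subunits leaned the same way as the 10. All 7 had estimates above 0 with a median of 0.20, none passed the test, and none had an unadjusted p under 0.05. Atp5mpl, the 6.8 kDa proteolipid, had the largest estimate, with 36.6, 51.6 and 60.4 CPM against 73.3, 56.1 and 63.7 CPM (log2 fold change 0.38 ± 0.19, SE). In CPM its groups overlapped, as did those of the other 6. In deposited counts, which are not scaled to the size of the library, TCR+DMGV was higher without overlap for Atp5j, Atp5l and Usmg5. In gene FPKM this held for Usmg5 alone. Atp5f1, subunit b of the peripheral stalk, had the smallest (0.08 ± 0.10, SE). Atp5j, coupling factor 6, and Usmg5, a small protein of enzyme dimers, had 0.20 ± 0.12 and 0.20 ± 0.10 (SE), and the dimer subunits Atp5k, subunit e, and Atp5l, subunit g, had 0.29 ± 0.23 and 0.20 ± 0.10 (SE). Atp5j2, subunit f, had 0.15 ± 0.18 (SE).

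Of the 7 assembly factors and regulators, 4 had estimates above 0 and 3 below, and none passed the test or had an unadjusted p under 0.05. Their median was 0.05, and it was 0.014 without TCR alone replicate 2, 0.14 without TCR alone replicate 3, and 0.098 and 0.12 without TCR+DMGV replicates 1 and 2. Atpif1, which blocks the enzyme when it runs in reverse, had 26.0, 29.6 and 31.0 CPM in TCR alone and 30.2, 26.7 and 29.7 CPM in TCR+DMGV (log2 fold change -0.00093 ± 0.11, SE). Atpaf1 and Atpaf2, the chaperones of the β and α subunits, had log2 fold changes of -0.23 ± 0.17 and 0.05 ± 0.10 (SE). Tmem70, needed to build the c ring, was uneven within TCR alone at 33.1, 80.2 and 38.1 CPM and had 67.0, 71.6 and 62.6 CPM in TCR+DMGV (log2 fold change 0.41 ± 0.32, SE). Dmac2l, also called factor B, had the largest estimate (0.78 ± 0.39, SE) at no more than 1.98 CPM in any sample. The other 2, Fmc1 and Tmem242, had -0.03 ± 0.22 and 0.16 ± 0.12 (SE).

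The carriers that bring ADP and phosphate to the enzyme had small estimates above 0. The ADP/ATP carrier Slc25a5 had 925, 1048 and 1124 CPM in TCR alone and 1105, 1088 and 1104 CPM in TCR+DMGV (log2 fold change 0.09 ± 0.08, SE), and the other isoform, Slc25a4, had 0.06 ± 0.08 (SE). The phosphate carrier Slc25a3 had 0.16 ± 0.10 (SE), none of the 3 passed the test, and the testis isoform Slc25a31 had 0 counts in all samples. The vacuolar ATPase, the rotary enzyme that pumps protons at the cost of ATP, had 12 of its 16 genes above 0 and a median of 0.06. Complex I had 35 of 36 above 0 and a median of 0.13, complexes III and IV 16 of 19 and a median of 0.15, and the large ribosomal proteins 45 of 45 and a median of 0.17. No gene of these lists passed the test. Without TCR alone replicate 1, the carriers had 2 of 3 above 0 and a median of 0.034, the vacuolar ATPase 10 of 16 and 0.042, complex I 25 of 36 and 0.050, complexes III and IV 17 of 19 and 0.081, and the ribosomal proteins 33 of 45 and 0.062. Without TCR alone replicate 3 the medians of the carriers and the ribosomal proteins were 0.16 and 0.25, and without TCR+DMGV replicate 3 that of the ribosomal proteins was 0.10. With all samples, the 10 subunit genes had a smaller median than the ribosomal proteins, and no test of that difference was run.

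The patterns of the c subunit genes over the 6 samples were also set against those of 5625 genes with a mean log2 CPM of at least 5, as a description, with the same 6 libraries behind all points. Nearest to Atp5g1 were Gm10252, Tex261 and Lta (Pearson r 0.996, 0.989 and 0.988), nearest to Atp5g2 were Sh2d2a, Mif and Ndufa12 (0.988, 0.983 and 0.982), and nearest to Atp5g3 were Gga1, Tfap4 and Aen (0.999, 0.992 and 0.988). Among the c subunit genes themselves the values were 0.901 for Atp5g1 with Atp5g3, 0.867 for Atp5g2 with Atp5g3 and 0.826 for Atp5g1 with Atp5g2. Atp5e was the nearest subunit gene to Atp5g1 and Atp5g3 (0.966 and 0.921), whereas Atp5c1 had -0.344 with Atp5g1 and -0.283 with Atp5g3.

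The transcript table splits each gene's counts over its annotated transcripts. Of the 55 transcripts, 53 had at least 1 count, 44 were tested, and 21 held at least 5% of their gene's counts in some sample. A single coding transcript made up most of the RNA of Atp5a1 (94.4% to 97.9%), Atp5b (95.3% to 99.5%), Atp5c1 (82.4% to 99.7%), Atp5e (87.3% to 98.2%), Atp5g2 (99.0% to 99.4%) and Atp5h (73.5% to 83.5%). Atp5g1 was split between Atp5g1-201, of 4715 bases (55.2% to 58.6%), and Atp5g1-202, of 596 bases (37.7% to 42.7%), which have the same coding length of 408 bases. Atp5g3 was split between Atp5g3-201 (40.1% to 46.9%) and Atp5g3-202 (40.0% to 51.5%), and Atp5g3-202 was higher in every TCR+DMGV sample than in any TCR alone sample, from 2041, 2298 and 2941 to 3981, 3417 and 3081 counts (log2 fold change 0.44 ± 0.15 SE, adjusted p = 1.0 in edgeR).

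With edgeR, no transcript of the 10 genes passed the test and none of the 38401 transcripts tested did (0.00%), while 3 of the 44 had an unadjusted p under 0.05 against 3.22% of all. The groups were apart and higher in TCR+DMGV for 4 of the 44 (5.07% of all), and apart and lower for 2 (4.18% of all). DESeq2, which ran over its own set of 53479 transcripts, called Atp5o-203, Atp5c1-206 and Atp5c1-201 (0.724% of that set), of which Atp5c1-201 is not among the 44. Limma on log2(FPKM + 1), over 70117 transcripts, called Atp5o-203 (0.00428% of these).

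Atp5o-203 (ENSMUST00000139277.7) had the largest edgeR estimate of any subunit transcript. Its counts depend on how reads shared with other Atp5o transcripts were divided. They were 0, 0 and 4 without DMGV and 623, 624 and 604 with it. Atp5o-203 held 0.0167% of the gene's counts on average in TCR alone and 8.74% to 9.89% in TCR+DMGV. The groups did not overlap, and the 3 TCR+DMGV samples were nearly equal. Per total count the ratio was 433 (95% interval 169 to 1592, counting error only). The usual transcript, Atp5o-201 (ENSMUST00000023677.9), was counted 5542, 6754 and 7984 times without and 6377, 5644 and 6032 times with DMGV (log2 fold change -0.24 ± 0.13, SE), with the groups overlapping. The estimate for Atp5o-203 was 8.66 ± 1.33 (log2, SE), with adjusted p = 0.356 in edgeR's test, adjusted p = 5.28e-19 in DESeq2, and adjusted p = 0.00473 and 0.0506 in limma on log2(FPKM + 1) and log2(FPKM + 0.1). Without each sample in turn, edgeR's adjusted p was 0.253 to 0.611.

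Atp5o-201 and Atp5o-203 start at different exons, and the junctions from exon 1 into exon 2 are shown because exon 1 is where the transcripts differ most. On the minus strand of chromosome 16 in GRCm38, exon 1 of Atp5o-201 is chr16:91931520-91931687 and that of Atp5o-203 is chr16:91931136-91931274, which lies in intron 1 of Atp5o-201, and the transcript starts are 413 bases apart. Both join the same exon 2, chr16:91930354-91930404. Whether reads cross either junction was not examined. The capitals mark the last 15 bases of exon 1 and the lower case letters the 15 bases that follow in exon 2.
Atp5o-201: GGACTGTCTCGACAGgttcggagcttcagt
Atp5o-203: TTTGGCTGGCAGCTGgttcggagcttcagt
The annotated coding sequence of Atp5o-203 (283 bases) is contained in that of Atp5o-201 (639 bases), in the same frame. It begins after 108 codons, so it lacks the start of OSCP. It also ends before the coding sequence of Atp5o-201 does, and 283 bases are not a whole number of codons. Atp5o-205, whose exon 1 shares 27 bases with that of Atp5o-203, was at 0 without DMGV and at 7, 7 and 12 counts with it. Atp5o-206, which starts in exon 1 of Atp5o-201, was at 0 without DMGV and at 103, 0 and 14 with it. Both were chosen after their values were seen. An antisense RNA gene, D430001F17Rik, overlaps exon 1 of Atp5o-203 and had 0 to 5 counts, and its part in these values was not tested. A further gene record with the symbol Atp5o overlaps the 3′ part of the locus and was not used here.

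**Figure D5:**
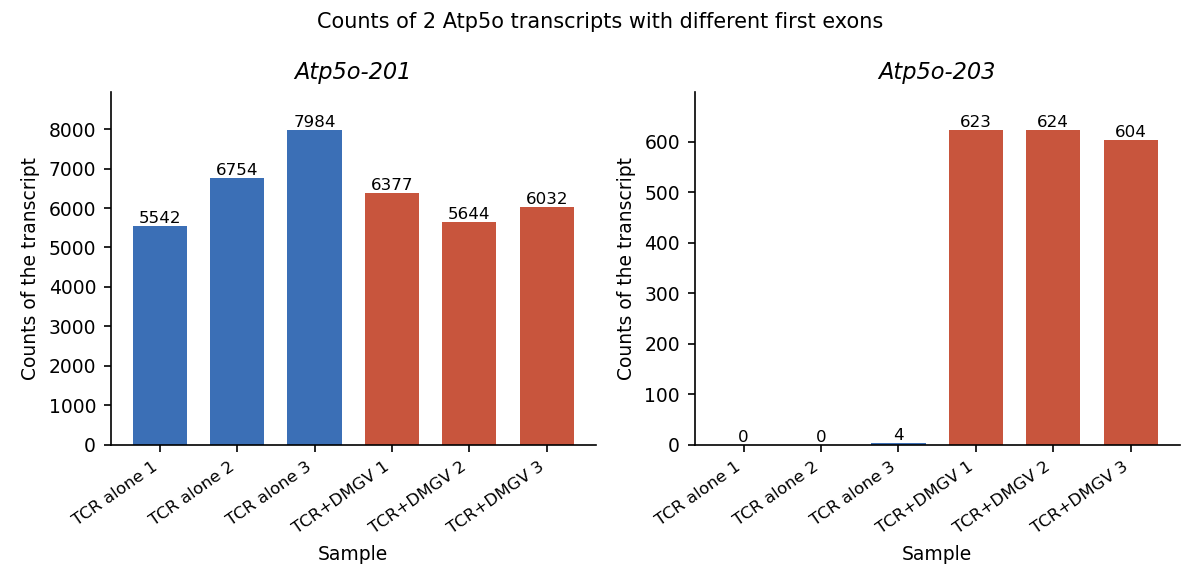
Deposited counts of Atp5o-201 (left) and Atp5o-203 (right) in each sample, with the value above each bar; the vertical scales differ. Atp5o-201 is between 5542 and 7984 in all samples, whereas Atp5o-203 is at 0 to 4 in TCR alone and 604 to 624 in TCR+DMGV.

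To place this pattern, all transcripts with at least 100 counts in every sample of either group were searched for those with at most 5 counts in every sample of the other. There were 13 such transcripts of 16427 (0.0791%) on in TCR+DMGV and off in TCR alone, and 10 with the opposite pattern. Of the 23 subunit transcripts in that search, Atp5o-203 was the only such one. The limits of this search were set after the values of Atp5o-203 were seen.

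The counts of other subunit transcripts varied widely between samples, and they too depend on how shared reads were divided. Atp5d-201 and Atp5d-203 have the same coding length of 504 bases. For Atp5d-201 there were 1599, 4346 and 338 counts without DMGV against 1012, 147 and 601 with it, while Atp5d-203 had 3557, 1513 and 6486 and then 6417, 6378 and 5426. TCR alone replicate 2 was thus the only sample in which Atp5d-201 was the larger. For Atp5c1-202 these were 81, 75 and 13 against 2, 3 and 2062, so a single sample held nearly all of it. Atp5c1-201 was at 234, 1 and 629 without DMGV and at 0 in all TCR+DMGV samples, and did not pass edgeR's filter on low counts. Atp5c1-206, named after its values were seen, was at 0 without DMGV and at 30, 19 and 14 with it (edgeR adjusted p = 0.455).

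Promoters, here 250 bases before to 50 after the start in RefSeq's GRCm38.p6 annotation, were available for 9 of the 10 genes and for 27025 genes in all, and were searched on both strands for 4 short motifs. The ETS motif CCGGAAG was in Atp5e and Atp5h (9.93% of all promoters), the NRF1 core GCATGCG in Atp5g2 (4.01%), the SP1 motif GGGCGG in Atp5b, Atp5e and Atp5g2 (38.2%), and the YY1 motif AAGATGG in none (7.28%). The 9 promoters therefore shared no motif of these 4.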

How the data were processed

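mRNA libraries of 6 samples were sequenced. The authors used SOAPnuke 1.5.2 to filter reads, HISAT2 2.0.4 for alignment and StringTie 1.2.3 for quantification. The authors deposited whole-number counts and FPKM values per gene and transcript. How StringTie coverage became counts, and whether strand was used, is not given in the sources used here. The submitters' processing notes name mm9, but 99.7% of gene identifiers matched GENCODE M21 (GRCm38), the source of all coordinates and transcript sequences. Haus1 (1065 to 1341 counts) and Cbarp (746 to 912 counts) overlap Atp5a1 and Atp5d on the other strand.

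Counts were tested with edgeR 4.0.16 (quasi-likelihood, TMM, filterByExpr) over 14786 genes and 38401 transcripts, in R 4.3.3 (two-sided; Benjamini-Hochberg over the whole table; calls at 0.05). CPM were TMM-scaled. DESeq2 1.42.0, limma 3.58.1 on log2(FPKM + 1), other normalizations, filters, length and GC corrections and samples left out were alternatives. On simulated counts, the test recovered 46% of 200 genes given a log2 change of 1 among 14446 genes, and 90% at a change of 3. Of the genes called, 8% and 10.4% had been given no change. Of 200 transcripts, it recovered 0% at a log2 change of 1, and 6% at a change of 3 among 35249 transcripts. Changes smaller than 1 were not simulated. No 2 libraries agreed within sampling noise. Named were all subunit genes and every gene of the lists of other subunits, assembly factors and carriers. Most transcripts with 5% of a gene's counts in a sample were named or described. Not described were Atp5d-202, Atp5g3-204 and Atp5h-208, which held at most 7.18%, 9.57% and 12.1%. For each c subunit gene, the 3 genes most like it were named. One item of the marker lists is not reported here. The members and lists were chosen with earlier results of these data known.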

Additional observations from a re-analysis of the deposited data

How the results depend on the processing

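No subunit gene, other subunit, assembly factor or carrier passed the threshold under any alternative run. The median log2 fold change of the 10 genes was 0.049 to 0.097 over other normalizations, filters, tools and trend corrections, and 0.0050 to 0.17 with 1 sample left out. The number of subunit transcripts past the threshold was 0 of 44 with edgeR, 3 with DESeq2, which ran over a larger set and called 2 of these 44, and 1 with limma on log2(FPKM + 1), and the cause was not tested. With all samples, the estimate of Atp5c1-202 was 3.60 ± 2.54 (log2, SE). This and several estimates nearer 0 changed sign with 1 sample, or TCR alone replicate 3 and TCR+DMGV replicate 1 together, left out. The log2 fold change then ran from -0.039 to 0.071 for Atp5a1, -0.021 to 0.093 for Atp5b, -0.091 to 0.14 for Atp5c1, -0.072 to 0.21 for Atp5h, -0.20 to 0.024 for Atp5o, -0.049 to 0.27 for Atp5j2, -0.00010 to 0.16 for Slc25a5, -0.089 to 0.060 for Atpif1, -0.022 to 0.12 for Atpaf2 and -0.18 to 0.27 for Fmc1. Among transcripts it ran from -0.037 to 0.058 for Atp5a1-201, -0.025 to 0.082 for Atp5b-201, -0.15 to 0.10 for the main Atp5c1 transcript, -0.99 to 0.51 for Atp5h-203, -4.57 to 4.18 for Atp5c1-202, -0.62 to 0.79 for Atp5e-202, -0.036 to 0.11 for Atp5g1-202 and -0.0038 to 0.22 for Atp5h-201. The difference in the share of Atp5g2 in the c subunit RNA ran from -1.11 to 0.901 percentage points. With the length trend removed, the sign changed for Atp5c1 (-0.029). The joint omission of those samples and the GC correction were chosen after seeing the data. Same-numbered samples of the groups correlated at -0.154, 0.121 and -0.148 in their deviations. With deviations from means of 3 samples per group, these values cannot settle whether same-numbered samples share an origin. With the replicate number as a block, the median of the 10 genes was 0.097, no gene or transcript described here passed, and the sign changed for Atpif1 (0.00095), Atp5e-202 (0.12) and Atp5c1-202 (-3.02). Every subunit gene had at least 1392 counts in each sample, whereas the transcript counts also depend on how reads shared by transcripts were divided.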
